A study of Rattus norvegicus with 17 samples.

Results

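Liver RNA of 2 Goto-Kakizaki (GK) rats was compared to liver RNA of 5 Brown-Norway (BN) rats, on 7 of the 17 expression arrays that were deposited for both strains. The GK rat is an inbred, lean strain that becomes diabetic without any treatment, and the BN rat is an inbred strain with normal blood glucose. All rats were males of 7 months on standard chow, with no treatment, and each array held total RNA of the liver of 1 rat on an Illumina RatRef-12 BeadChip. The groups differ in strain throughout the genome, so effects of diabetes and of other strain differences cannot be told apart here. The 7 arrays are GK liver replicates 1 and 3 and BN liver replicates 1 to 5. The remaining GK liver array, replicate 2, was left out before normalization because it carried Umod and Slc34a1, which are made in kidney, and lacked Cps1, the first enzyme of the urea cycle, which is made in liver. With 8 liver arrays in 1 model, Umod was 14.76 on GK liver 2, against 4.14 to 4.81 on the BN livers, and Slc34a1 was 13.71, against 4.05 to 4.84. Cps1 was 5.47 on GK liver 2 and not above background there, against 14.10 to 14.73 on the BN livers. These values chose the array and are a description only.

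The liver makes fatty acids and cholesterol, breaks down amino acids and disposes of their nitrogen as urea, and oxidizes and conjugates steroids and foreign compounds. Synthesis of fatty acids and of cholesterol is controlled by the SREBP transcription factors, SREBP-1c responding mainly to insulin and SREBP-2 to a lack of sterols. Interferons act on liver cells through STAT and IRF factors, which bind a shared DNA motif and switch on a set of antiviral genes. The rat reference genome comes from the BN strain, and a sequence difference under a probe in GK cannot be told apart from a lower level of its RNA.

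Values below are log2 intensities after a variance stabilizing normalization (vsn) of the 7 arrays, and a probe was detected where its deposited detection score was above 0.99. Between 8004 and 8651 of 22226 probes were detected per array. Of 10 measured hepatocyte markers, 9 were detected on every array and the probe of Apob on none. Of 23 kidney markers, 16 were detected on none of the 7 arrays, whereas GK liver 2 carried all 23. Kap, an abundant transcript of kidney that was singled out after its values were seen, was 7.65 on GK liver 1 and detected there, 4.59 on GK liver 3 and 4.25 to 5.19 on the BN livers. GK liver 1 was also the dimmest array, with a mean of 7472 over the biotin control probes against 13307 to 15845 on the other 6, and shared its slide with none of them. Across probes, which are not independent replicates, it correlated with the BN livers at 0.960 to 0.968, GK liver 3 did so at 0.976 to 0.981, and BN livers correlated with each other at 0.983 to 0.992. The part of these differences between arrays in the results was not tested.

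With limma, 818 of 22226 probes (3.68%) passed an adjusted p of 0.05, of which 378 (1.7%) were higher and 440 (1.98%) were lower in GK compared to BN liver. Adjustment was by Benjamini-Hochberg and covered every probe on the array. Among the 8205 probes detected on every array of at least 1 strain, 8.49% were called. GK and BN values did not overlap for 4119 probes (18.5%), among them 814 of the 818 called. All 818 moved in the same direction on GK liver 1, on GK liver 3 and between GK liver 3 and BN liver 3, the only arrays of both strains that shared a slide. The same arrays made the calls, so the shared direction and the lack of overlap largely follow from them and are a description only. Without GK liver 1 there were 504 calls and without GK liver 3 there were 2335, and 403 of the 818 were called in the same direction under both. More than 4-fold changes were seen for 59 probes that were higher and 71 that were lower. Of the called probes, 110 that were higher were detected on no BN array, 133 that were lower were detected on no GK array, and 55 were detected on no array at all. The annotation named a gene for 567 of the called probes.

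The largest increases joined a lipid enzyme, a glutathione transferase and several antiviral genes. Scd, the desaturase that turns saturated into monounsaturated fatty acids, was 14.83 and 13.86 on GK livers 1 and 3, against 7.98, 6.16, 6.36, 5.98 and 6.02 on BN livers 1 to 5, and was detected on 3 of the BN arrays. Its log2 fold change was 7.85 ± 0.44 (SE, n = 2 GK and 5 BN, limma adjusted p = 1.24e-07). BN liver 1 was the highest of its group, and still far below either GK liver. The size of this difference depends on how values near background are scaled, and in the neqc style of normalization (background set from the detection scores, an offset of 16 and quantile normalization) the log2 fold change was 6.22 (limma adjusted p = 0.000544). Echdc2, an enoyl-CoA hydratase domain protein, was 11.23 and 11.48 on the GK livers and was detected on no BN array, where it lay between 4.05 and 4.80. It was at least 51.5-fold higher, taking the lowest detected signal of each array as the background (limma adjusted p = 9.65e-10), whereas its log2 fold change in the neqc style was 3.19. Gsta5, a glutathione S-transferase of the alpha class, was 14.27 and 14.29 on the GK livers, against 7.23 to 8.36 on the BN livers (93.9-fold, limma adjusted p = 3.46e-09).

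The other increases of this size included genes of drug metabolism, adhesion and the plasma. Aox3, an aldehyde oxidase, was 10.65 and 10.87 in GK and 6.64 to 7.46 in BN livers. Cdh17, a cadherin of liver and intestine, was 12.51 and 12.36 in GK and 7.99 to 9.97 in BN livers. A2m, a protease inhibitor that rat liver makes in the acute phase, was 10.61 and 9.89 in GK livers, against 8.21 on BN liver 1 and 5.71 to 5.78 on the other 4 BN livers, and its log2 fold change in the neqc style was 1.76. Lgals5, a galectin, was similarly uneven, with 10.71 and 11.31 in GK livers, 10.29 on BN liver 1 and 6.10 to 6.99 on the rest. Its call (log2 fold change 3.81 ± 0.82, limma adjusted p = 0.0169) was lost without GK liver 1 (adjusted p = 0.0941), GK liver 3 (adjusted p = 0.0655) or BN liver 4 (adjusted p = 0.0516), and in the neqc style (adjusted p = 0.139). BN liver 1 also carried the highest levels of the erythroid genes Ahsp, Alas2 and Hemgn and of the neutrophil gene S100a8, and their part in these values was not tested. Miox, which starts inositol breakdown and is strongest in kidney, was 10.16 and 9.40 in GK and 6.06 to 6.57 in BN livers, and it was the only one of the 23 kidney markers to be called. Ly6c, a surface antigen of leukocytes and endothelium, was at least 5.999-fold higher on the vsn scale and detected on no BN array. Its log2 fold change in the neqc style was only 0.39. Tsku, a secreted small leucine-rich protein, was 8.80 and 9.18 in GK and 4.96 to 7.93 in BN livers. Sqle, Ifit1, Mx2, Ifi47 and Ifi44 complete the 15 largest increases and are described with their pathways.

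**Figure D1:**
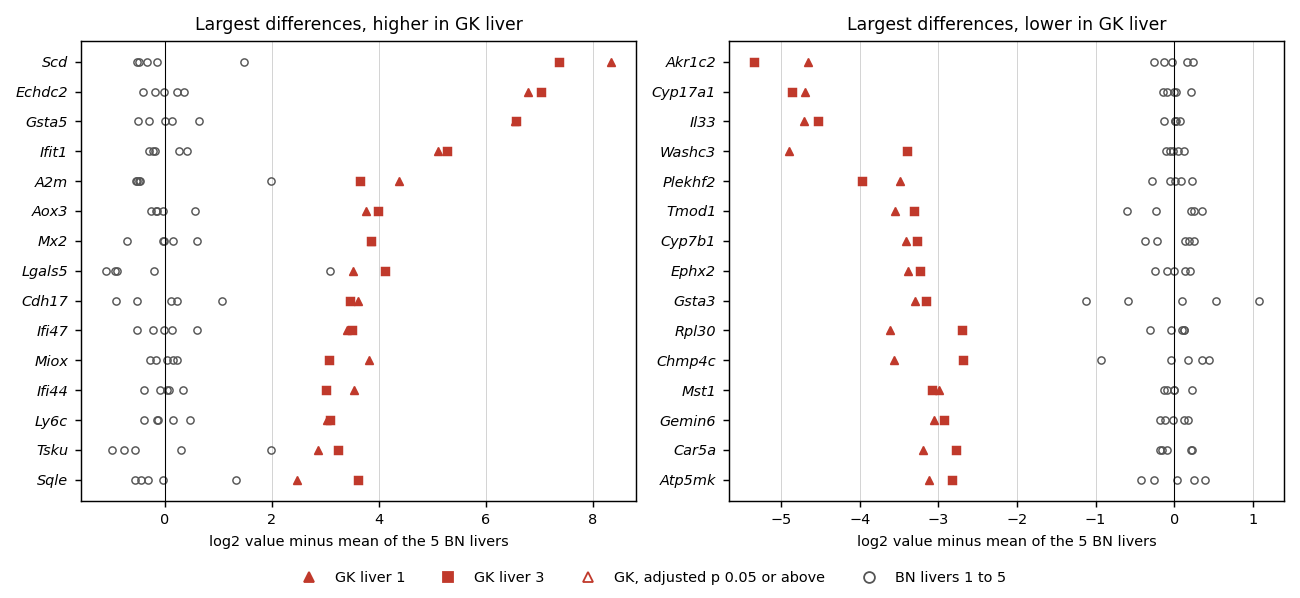
The 15 largest increases (left) and decreases (right) among called probes with a symbol, as log2 value minus the mean of the 5 BN livers. Red triangles are GK liver 1, red squares GK liver 3 and open circles the BN livers. The GK and BN values of these genes do not overlap, and the highest BN circle of Scd, A2m, Lgals5 and Sqle belongs to BN liver 1.

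Enzymes of steroid and bile acid metabolism led the decreases. Akr1c2, an aldo-keto reductase of steroids and bile acids, was 9.51 and 8.83 on GK livers 1 and 3, against 13.92, 14.41, 14.14, 14.05 and 14.34 on BN livers 1 to 5 (log2 fold change −5.01 ± 0.22, 32.1-fold lower, limma adjusted p = 8.36e-09). Cyp17a1, the 17-hydroxylase and lyase of steroid synthesis, was 9.19 and 9.02 in GK and 13.74 to 14.09 in BN livers (27.4-fold lower, limma adjusted p = 2.77e-09). Both genes lay within a narrow band in the BN livers and well below it in both GK livers. Cyp7b1, the oxysterol 7-hydroxylase of the alternative bile acid pathway, was 8.76 and 8.92 in GK and 11.81 to 12.44 in BN livers. Il33, an alarmin cytokine, was 7.44 and 7.61 in GK livers, against 12.01, 12.22, 12.16, 12.15 and 12.17 in BN livers (log2 fold change −4.62 ± 0.17, 24.5-fold lower, limma adjusted p = 2.77e-09). A second Il33 probe was detected on none of the 7 arrays.

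Ephx2, soluble epoxide hydrolase, which degrades epoxides of fatty acids, was 9.67 and 9.82 in GK and 12.81 to 13.27 in BN livers (9.96-fold lower, limma adjusted p = 1.21e-07). Mst1, the hepatocyte growth factor-like protein, was 8.73 and 8.64 in GK and 11.60 to 11.96 in BN livers. Plekhf2, an endosomal protein, and Tmod1, which caps actin filaments, were detected on no GK array. On the vsn scale Plekhf2 was at least 7.61-fold lower and Tmod1 at least 5.57-fold. Their log2 fold changes in the neqc style were only −0.51 and −0.37. Gsta3, another alpha class glutathione transferase, was at least 9.33-fold lower on the vsn scale, against a log2 fold change of −0.77 in the neqc style. Its values in BN livers varied from 7.85 to 10.05. Further decreases were in genes of intracellular complexes. Washc3 of the WASH complex was 6.33 and 7.83 in GK livers, against 11.13 to 11.37 in BN livers. Gemin6 of the SMN complex was 7.55 and 7.68 in GK and 10.43 to 10.78 in BN livers. Chmp4c of the ESCRT machinery was 6.47 and 7.36 in GK and 9.11 to 10.48 in BN livers. Rpl30, a ribosomal protein, was 10.16 and 11.07 in GK and 13.47 to 13.90 in BN livers. Of 60 measured cytosolic ribosomal proteins only Rpl30 was called lower and only Rps16 was called higher (log2 fold change 1.38), and 14 were lower without GK liver 3. Atp5mk, a small subunit of ATP synthase, was 7.605 and 7.90 in GK and 10.31 to 11.13 in BN livers. Car5a, a mitochondrial carbonic anhydrase, is the last of the 15 and is given with the urea cycle. In the neqc style Gsta3, Tmod1, Chmp4c and Rps16 were not called (limma adjusted p 0.0858 to 0.376).

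Genes of fatty acid synthesis and desaturation were higher in GK liver. Of 15 measured members 8 were called (53.3%, beside 3.68% of all probes), all of them higher. The median log2 fold change was 1.29, beside −0.01 over all probes. Fads1 and Fads2, the desaturases of polyunsaturated fatty acids, were 13.27 and 13.58, and 11.15 and 11.28, in GK livers, against 10.34 to 11.08 and 9.56 to 10.05 in BN livers. Fads1 was 7.51-fold higher (log2 fold change 2.91 ± 0.23, limma adjusted p = 2.68e-06) and Fads2 2.75-fold (1.46 ± 0.19, limma adjusted p = 0.000301). No BN liver reached either GK liver for these genes.

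The enzymes that feed carbon and reducing power into the pathway moved in the same direction. Acly, which makes cytosolic acetyl-CoA from citrate, was 10.27 and 11.26 in GK and 9.07 to 9.32 in BN livers (3.00-fold, limma adjusted p = 0.00110). Me1, the malic enzyme that supplies NADPH, was 9.12 and 8.38 in GK and 6.80 to 7.47 in BN livers (3.00-fold, limma adjusted p = 0.00114). Acss2, which activates acetate, was 9.36 and 9.43 in GK and 7.59 to 8.52 in BN livers (2.83-fold, limma adjusted p = 0.00186). The elongase Elovl5 (log2 fold change 1.35 ± 0.32, limma adjusted p = 0.0284) and Srebf1, which encodes SREBP-1 (1.29 ± 0.28, limma adjusted p = 0.0167), were called with all arrays but not without GK liver 1 (adjusted p = 0.422 for Elovl5 and 0.201 for Srebf1). Elovl5 also lost its call without BN liver 2, 3 or 4 (adjusted p 0.0576 to 0.0733). Me1, Srebf1 and Elovl5 were not called in the neqc style (adjusted p 0.098 to 0.207), which leaves 5 of the 8 calls.

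The remaining 7 members were not called. Mid1ip1, a regulator of acetyl-CoA carboxylase, had a log2 fold change of 1.00 (limma adjusted p = 0.0799), Aacs 0.98 and the citrate carrier Slc25a1 0.42. Thrsp, a gene that responds to thyroid hormone and carbohydrate, ranged from 11.34 to 13.53 in BN livers and was 12.40 and 13.76 in GK livers. Acaca, the carboxylase that commits acetyl-CoA to the pathway, and the elongase Elovl6 had probes that were detected on none of the 7 arrays, so their levels were not measured. Scd2, a desaturase of other tissues, had a log2 fold change of 0.09, beside 7.85 for Scd.

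Cholesterol synthesis showed the same direction with more variation within BN. Of 19 measured members 11 were called (57.9%, beside 3.68% of all probes), all higher, with a median log2 fold change of 0.98. Sqle, squalene epoxidase, was 10.27 and 11.39 on GK livers 1 and 3, against 9.13, 7.75, 7.24, 7.48 and 7.34 on BN livers 1 to 5 (log2 fold change 3.04 ± 0.43, limma adjusted p = 0.000699). Cyp51, the lanosterol demethylase, was 8.38 and 9.40 in GK livers, against 7.41 on BN liver 1 and 6.11 to 6.23 on the other 4 (2.45 ± 0.34, limma adjusted p = 0.000612). In both cases GK liver 3 was above GK liver 1 and BN liver 1 was above the other BN livers. In the neqc style 5 of the 11 calls were left, and Cyp51, Acat2, Idi1, Fdps, Msmo1 and Mvd did not pass (limma adjusted p 0.0809 to 0.247).

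The called members lie along the whole pathway. From its early part Acat2 (1.98), Mvd (1.36), Idi1 (2.37) and Fdps (1.95) had these log2 fold changes, and from the squalene and sterol steps Fdft1 (1.33), Msmo1 (2.30), Nsdhl (0.75), Sc5d (0.98) and Dhcr7 (2.37). Dhcr7, the last enzyme of the pathway, was 11.87 and 12.38 in GK and 9.17 to 10.22 in BN livers (5.18-fold, limma adjusted p = 8.74e-05). Over the 19 members BN liver 1 lay above the mean of the other BN livers for 16, by a median of 0.58, whereas GK livers 1 and 3 lay above the mean of all BN livers by medians of 0.89 and 1.16. Without BN liver 1, 12 members were called, and without each array in turn 9 to 12. Nsdhl was not called without GK liver 1 (adjusted p = 0.124) or BN liver 2, 3 or 4 (adjusted p 0.0694 to 0.0757), and Mvd was not called without GK liver 3 (adjusted p = 0.185) or BN liver 2, 3, 4 or 5 (adjusted p 0.0832 to 0.0945). Not called were Hsd17b7 (0.91), Stard4 (0.75), Pmvk (0.55), Ebp (0.27), Tm7sf2 (0.12), Scap (−0.13) and Insig2 (−0.16), which holds SREBP in the endoplasmic reticulum. Srebf2, which encodes SREBP-2, was 6.47 and 6.69 in GK and 5.40 to 6.26 in BN livers and did not pass (log2 fold change 0.82, limma adjusted p = 0.0785).

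**Figure D2:**
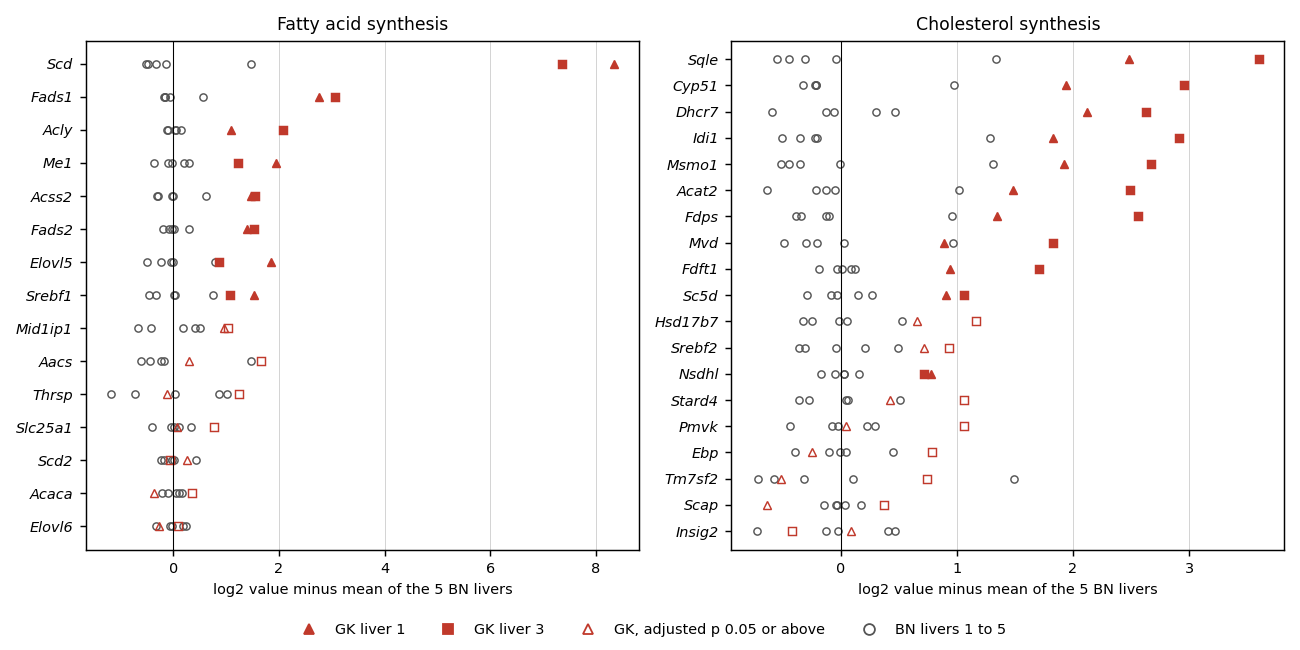
Genes of fatty acid synthesis (left) and cholesterol synthesis (right), as log2 value minus the mean of the 5 BN livers, in the order of the log2 fold change. Red triangles are GK liver 1 and red squares GK liver 3, filled where the adjusted p was under 0.05, and open circles are the BN livers. Scd stands apart at 7.85, and BN liver 1 is the highest circle for Sqle, Cyp51, Idi1, Msmo1, Acat2 and Fdps.

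Promoters of 15 genes of the cholesterol list and 13 of the fatty acid list were matched in RefSeq (build GRCr8), each from 250 bases before to 50 bases after the annotated start. The CCAAT box, the site of NF-Y, a factor that acts beside SREBP, was found on either strand in 11 of the 15 and 8 of the 13, against 39.6% of all 27457 genes with a promoter. A sterol element spelled TCACNCCAC was found in none of these windows and in 1.25% of all. In the cholesterol list 6 of 9 matched members that were called hold the CCAAT box, as do 5 of 6 that were not called. In the fatty acid list 5 of 8 called and 3 of 5 not called members hold it, so the box did not separate them. A match is a description and not a site. The called member with the smallest adjusted p that holds the box is shown for each list, Idi1 (isopentenyl diphosphate isomerase, chr17:66547475-66547774, minus strand) and Fads1 (chr1:216252442-216252741, plus strand), with CCAAT or its reverse complement ATTGG in capitals.
Idi1: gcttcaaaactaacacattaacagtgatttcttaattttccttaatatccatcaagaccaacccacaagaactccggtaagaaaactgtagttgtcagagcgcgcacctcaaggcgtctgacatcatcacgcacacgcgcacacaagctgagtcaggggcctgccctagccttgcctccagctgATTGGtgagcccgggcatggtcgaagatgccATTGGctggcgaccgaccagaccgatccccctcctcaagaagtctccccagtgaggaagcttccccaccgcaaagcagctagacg
Fads1: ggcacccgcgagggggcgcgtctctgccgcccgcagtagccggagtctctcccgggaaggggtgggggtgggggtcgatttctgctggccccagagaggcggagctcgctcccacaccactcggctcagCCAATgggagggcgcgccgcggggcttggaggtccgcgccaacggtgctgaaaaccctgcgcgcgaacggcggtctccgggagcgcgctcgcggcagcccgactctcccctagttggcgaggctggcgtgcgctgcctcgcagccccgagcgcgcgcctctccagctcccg

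The interferon-induced genes formed a further group that was higher in GK liver. Of 36 measured members 20 were called higher and 1 lower (58.3%, beside 3.68% of all probes), and the median log2 fold change was 0.98. GK and BN values did not overlap for 27 members, beside 18.5% of all probes. Ifit1, which binds viral RNA, was 9.78 and 9.94 on GK livers 1 and 3, against 4.49, 4.38, 5.08, 4.45 and 4.93 on BN livers 1 to 5, where it was detected on no array. It was at least 18.2-fold higher on the vsn scale (limma adjusted p = 6.59e-09), whereas its log2 fold change in the neqc style was 1.43. Mx2 and Mx1, antiviral GTPases, were 10.29 and 10.29, and 8.93 and 9.30, in GK livers, against 5.73 to 7.03 and 6.64 to 7.23 in BN livers (14.5-fold and 4.84-fold, limma adjusted p = 1.04e-06 and 1.80e-05). Ifi47, an interferon-gamma inducible GTPase, was 9.26 and 9.36 in GK and 5.34 to 6.47 in BN livers, and Ifi44 10.24 and 9.73 in GK and 6.33 to 7.06 in BN livers.

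Many of the regulators and sensors among the members were called, whereas Irf1, Stat2 and Eif2ak2 were not. Irf7, the factor that amplifies interferon production, was 9.71 and 10.05 on GK livers, against 6.80, 7.04, 7.53, 7.66 and 7.08 on BN livers (6.33-fold, limma adjusted p = 1.26e-05). Irf9, the DNA-binding part of the interferon response complex, had a smaller log2 fold change of 0.87 (limma adjusted p = 0.0160), and Stat2, its partner, had 0.72 (limma adjusted p = 0.0654). The RNA sensors Dhx58 (1.12) and Ifih1 (1.12), the DNA sensor Zbp1 (1.27), the E3 ligase Trim25 (0.75) and Usp18 (1.48), which removes ISG15 from proteins, were called. Of the family of 2-5A synthetases, which activate RNA decay, Oas1a had a log2 fold change of 2.55 and Oas1i 1.52, and their relatives Oasl and Oasl2 had 2.11 and 1.17. Oas1a was 7.86 and 9.19 in GK and 5.36 to 6.64 in BN livers. Probes of such near-identical family members may share RNA. Ifi27 (1.58), Ifi27l2b (1.64), Gbp2 (1.59) and Lgals3bp (1.10) complete the 20. Calls were lost for Trim25 without any 1 of GK liver 1 and the 5 BN livers (adjusted p 0.0558 to 0.366), for Ifih1 without GK liver 1 or BN liver 4 (0.249 and 0.0647), for Usp18 without GK liver 3 (0.125) and for Lgals3bp without GK liver 3 or BN liver 2, 4 or 5 (0.0521 to 0.12). In the neqc style 12 of the 20 were called higher, and Oas1a, Oas1i, Oasl, Zbp1, Usp18, Ifih1, Lgals3bp and Trim25 did not pass (limma adjusted p 0.0618 to 0.24).

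Igtp, an immunity-related GTPase, was the member called lower, at 8.80 and 8.38 in GK and 9.56 to 9.72 in BN livers (log2 fold change −1.04 ± 0.18, limma adjusted p = 0.00362). Among the 15 members not called, besides Stat2, Irf1 (0.15, limma adjusted p = 0.821), Ifitm1 (0.23), Ifitm3 (−0.48), Bst2 (0.40) and Ifi44l (0.51) were detected on all 7 arrays. Isg15, Ifit2, Oas1b and Gbp5 were detected on none of the 7. Irgm, another GTPase of this family, had no detection score above 0.99 either, but lay at 7.91 to 8.65 on the 7 arrays, so its scores and its signal disagree, as they did for 29 probes with a mean above 7. Its log2 fold change was 0.24. Ifit3, Cxcl10 and Gbp4 were detected on 1 GK array and no BN array, and Eif2ak2 on both GK arrays and no BN array (log2 fold change 0.75, limma adjusted p = 0.0867). BN liver 3 lay above the mean of the other BN livers for 31 of the 36 members, by a median of 0.24, and GK livers 1 and 3 lay above the BN mean by medians of 0.84 and 0.98. The count of members called higher was 17 to 19 without each array in turn.

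Most markers of T and NK cells were higher on the same GK arrays, and their part in the interferon result was not tested. Over the 18 measured, the mean log2 value was 6.38 and 6.61 on the GK livers and 5.80 to 6.17 on the BN livers. A log2 fold change above 0 was seen for 15, beside 10888 of all 22226 probes. On every array of at least 1 strain, 9 were detected. Called higher were Gzma, a granule protease (at least 6.76-fold, limma adjusted p = 6.53e-07, detected on no BN array), Cd8a (log2 fold change 1.37) and Klrd1 (0.97), which were singled out after their values were seen. The defining T cell markers Cd3d, Cd3e and Cd3g were not called, and Lck, Cd4 and Zap70 had log2 fold changes below 0. Lck was detected on 4 BN arrays and no GK array (log2 fold change −0.53, limma adjusted p = 0.223). Of 11 macrophage markers 9 had a log2 fold change above 0, with a median of 0.45, and none passed limma at an adjusted p of 0.05. At an unadjusted p of 0.05, 5 were higher and 1, Cd14, was lower (log2 fold change −0.60). In bulk liver, more cells of a type and more RNA per cell cannot be told apart.

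**Figure D3:**
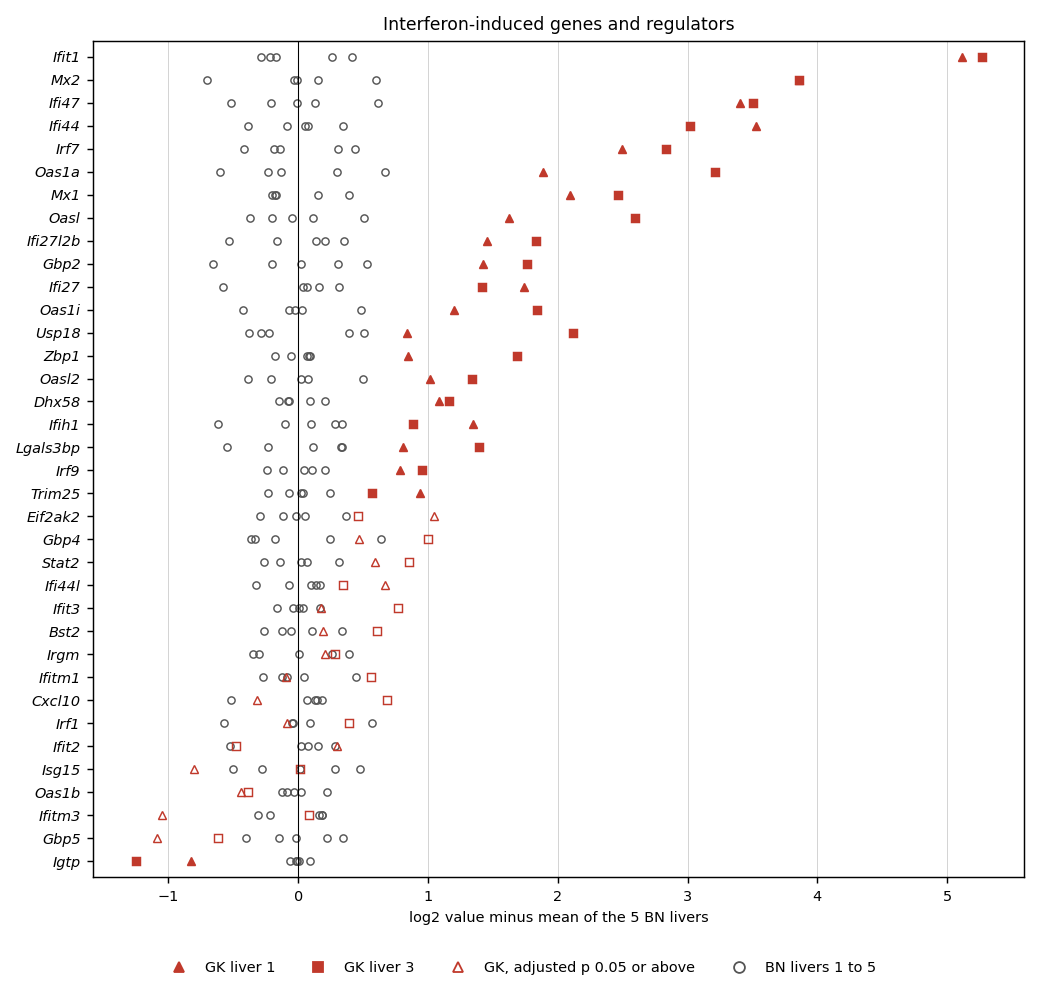
The 36 measured genes induced by or regulating interferon, as log2 value minus the mean of the 5 BN livers. Red triangles are GK liver 1 and red squares GK liver 3, filled where the adjusted p was under 0.05, and open circles are the BN livers. Ifit1 and Mx2 lie farthest to the right, and Igtp is the only filled pair to the left of the BN livers.

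The motif that interferon response factors share, spelled GAAANNGAAA and searched on both strands, was found in the promoters of 20 of 27 members matched in RefSeq, against 4.12% of all 27457 genes. Of the 15 matched members that were called 10 hold it, as do 10 of the 12 that were not called, so the motif in this window did not separate them. Shown are the 4 called members with the smallest adjusted p that hold it and Cxcl10, the holder with the largest adjusted p (log2 fold change 0.18, limma adjusted p = 0.786), with the motif or its reverse complement in capitals. The windows are chr2:243303791-243304090 (minus strand) for Ifi44, chr1:205799974-205800273 (minus) for Irf7, chr12:41330216-41330515 (plus) for Oas1a, chr6:128355062-128355361 (plus) for Ifi27 and chr14:15988816-15989115 (plus) for Cxcl10, in build GRCr8. Oas1a shows an overlapping pair of matches, and Ifi44 and Ifi27 show separate pairs.
Ifi44: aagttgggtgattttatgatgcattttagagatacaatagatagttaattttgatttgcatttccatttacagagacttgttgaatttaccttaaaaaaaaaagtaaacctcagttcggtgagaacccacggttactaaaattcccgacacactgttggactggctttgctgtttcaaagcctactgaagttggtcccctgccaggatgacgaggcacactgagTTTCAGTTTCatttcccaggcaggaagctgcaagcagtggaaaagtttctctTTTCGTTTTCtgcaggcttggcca
Irf7: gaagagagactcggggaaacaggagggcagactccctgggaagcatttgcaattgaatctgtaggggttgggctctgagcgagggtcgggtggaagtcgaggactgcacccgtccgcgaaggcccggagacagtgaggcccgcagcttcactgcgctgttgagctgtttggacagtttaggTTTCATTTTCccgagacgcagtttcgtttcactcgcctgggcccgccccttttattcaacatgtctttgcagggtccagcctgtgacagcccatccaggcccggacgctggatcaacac
Oas1a: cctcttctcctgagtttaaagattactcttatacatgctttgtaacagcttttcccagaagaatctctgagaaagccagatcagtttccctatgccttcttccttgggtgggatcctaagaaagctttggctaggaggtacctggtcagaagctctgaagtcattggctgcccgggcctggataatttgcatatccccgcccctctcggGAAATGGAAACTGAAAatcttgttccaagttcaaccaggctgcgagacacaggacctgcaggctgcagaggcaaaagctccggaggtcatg
Ifi27: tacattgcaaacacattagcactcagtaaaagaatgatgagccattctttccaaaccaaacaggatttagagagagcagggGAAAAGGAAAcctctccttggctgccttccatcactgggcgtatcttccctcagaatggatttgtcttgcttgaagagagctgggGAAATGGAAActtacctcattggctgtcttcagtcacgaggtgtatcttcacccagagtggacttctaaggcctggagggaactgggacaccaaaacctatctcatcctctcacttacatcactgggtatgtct
Cxcl10: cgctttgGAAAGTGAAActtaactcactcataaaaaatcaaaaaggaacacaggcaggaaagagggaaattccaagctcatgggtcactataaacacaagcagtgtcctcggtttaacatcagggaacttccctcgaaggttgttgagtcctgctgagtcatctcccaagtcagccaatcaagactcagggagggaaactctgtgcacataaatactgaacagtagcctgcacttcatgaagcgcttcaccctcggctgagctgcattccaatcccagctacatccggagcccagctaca

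Enzymes of amino acid breakdown and of the urea cycle were lower in GK liver. Of 36 measured genes of amino acid breakdown 14 were called lower and 1, Csad, was called higher (41.7%, beside 3.68% of all probes). A log2 fold change below 0 was seen for 31 (median −0.67). Sds, serine dehydratase, which turns serine into pyruvate, was 11.45 and 11.04 on GK livers 1 and 3, against 13.72, 13.17, 13.67, 13.94 and 13.28 on BN livers 1 to 5 (4.97-fold lower, limma adjusted p = 3.42e-05). Aass, which starts lysine breakdown, was 8.62 and 9.57 in GK and 11.17 to 11.70 in BN livers (5.30-fold lower, limma adjusted p = 5.11e-05). Sds and Aass had the largest differences of the list, and neither overlapped.

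Gnmt, which uses methyl groups of S-adenosylmethionine, was 13.18 and 14.01 in GK and 14.87 to 15.59 in BN livers (3.09-fold lower, limma adjusted p = 0.00166). Bckdhb, a subunit of the branched-chain ketoacid dehydrogenase, was 10.70 and 10.91 in GK and 11.81 to 12.38 in BN livers (2.56-fold lower, limma adjusted p = 0.00108). Got1, cytosolic aspartate aminotransferase, was 12.61 and 12.64 in GK and 13.68 to 13.93 in BN livers (2.26-fold lower, limma adjusted p = 0.000986). Abat, the transaminase of gamma-aminobutyrate, had a log2 fold change of −1.37 (limma adjusted p = 0.00395) and was not called without GK liver 1 (adjusted p = 0.0657). Csad, which makes hypotaurine on the way to taurine and was named after its values were seen, was 12.69 and 12.49 in GK and 10.85 to 11.81 in BN livers, and was not called without GK liver 1 (adjusted p = 0.0787). Of the 14 lower calls 5 were left in the neqc style. Gnmt and Abat, which were lower, and Csad, which was higher, did not pass there (limma adjusted p 0.0555 to 0.098).

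Of 15 measured genes of the urea cycle and arginine metabolism 7 were called lower and 1 higher (53.3%, beside 3.68% of all probes). The median log2 fold change was −0.67. Car5a, which supplies bicarbonate to the first step of the cycle, was 8.31 and 8.74 on GK livers 1 and 3, against 11.36, 11.73, 11.42, 11.73 and 11.33 on BN livers (7.92-fold lower, limma adjusted p = 7.47e-07). Asl, argininosuccinate lyase, was 11.12 and 12.97 in GK and 13.90 to 14.32 in BN livers (4.15-fold lower, limma adjusted p = 0.00321). The GK livers differed from each other by more than BN livers did for Asl, and both were below all BN livers. Ass1, argininosuccinate synthase, was 13.80 and 14.63 in GK and 15.29 to 15.64 in BN livers and lost its call without GK liver 1 (adjusted p = 0.088).

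Oat (log2 fold change −1.52), which links ornithine and proline, Gls2 (−1.27), the liver glutaminase, and Aldh9a1 (−1.05) were also lower. Arg1, named after its values were seen, was just inside the threshold at −0.79 ± 0.20 (limma adjusted p = 0.04998). It was not called without GK liver 1 (adjusted p = 0.527) or any 1 of the BN livers (adjusted p 0.0651 to 0.12). Cps1, whose value helped to choose the arrays, was 13.20 and 13.62 in GK and 14.01 to 14.60 in BN livers, given as a description. Rhbg, an ammonium transporter, was 6.14 and 6.55 in GK and 9.12 to 9.42 in BN livers (7.24-fold lower, limma adjusted p = 6.12e-07). Nos3, endothelial nitric oxide synthase, was the gene called higher, at 7.38 and 7.48 in GK and 5.95 to 6.41 in BN livers. Asl and Arg1 were not called in the neqc style (limma adjusted p = 0.12 and 0.139).

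These lists differed between arrays of the same strain. The median difference from the BN mean was −1.12 on GK liver 1 and −0.45 on GK liver 3 for the urea cycle list, and −0.81 and −0.59 for amino acid breakdown. Between GK liver 3 and BN liver 3 on their shared slide the medians were −0.29 and −0.68. Without GK liver 1, 5 urea cycle genes and 8 genes of amino acid breakdown were called lower, and without GK liver 3 the counts were 8 and 17. BN liver 1 lay below the mean of the other BN livers for 32 of the 36 genes of amino acid breakdown, by a median of 0.38, and 17 were called lower without it.

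**Figure D4:**
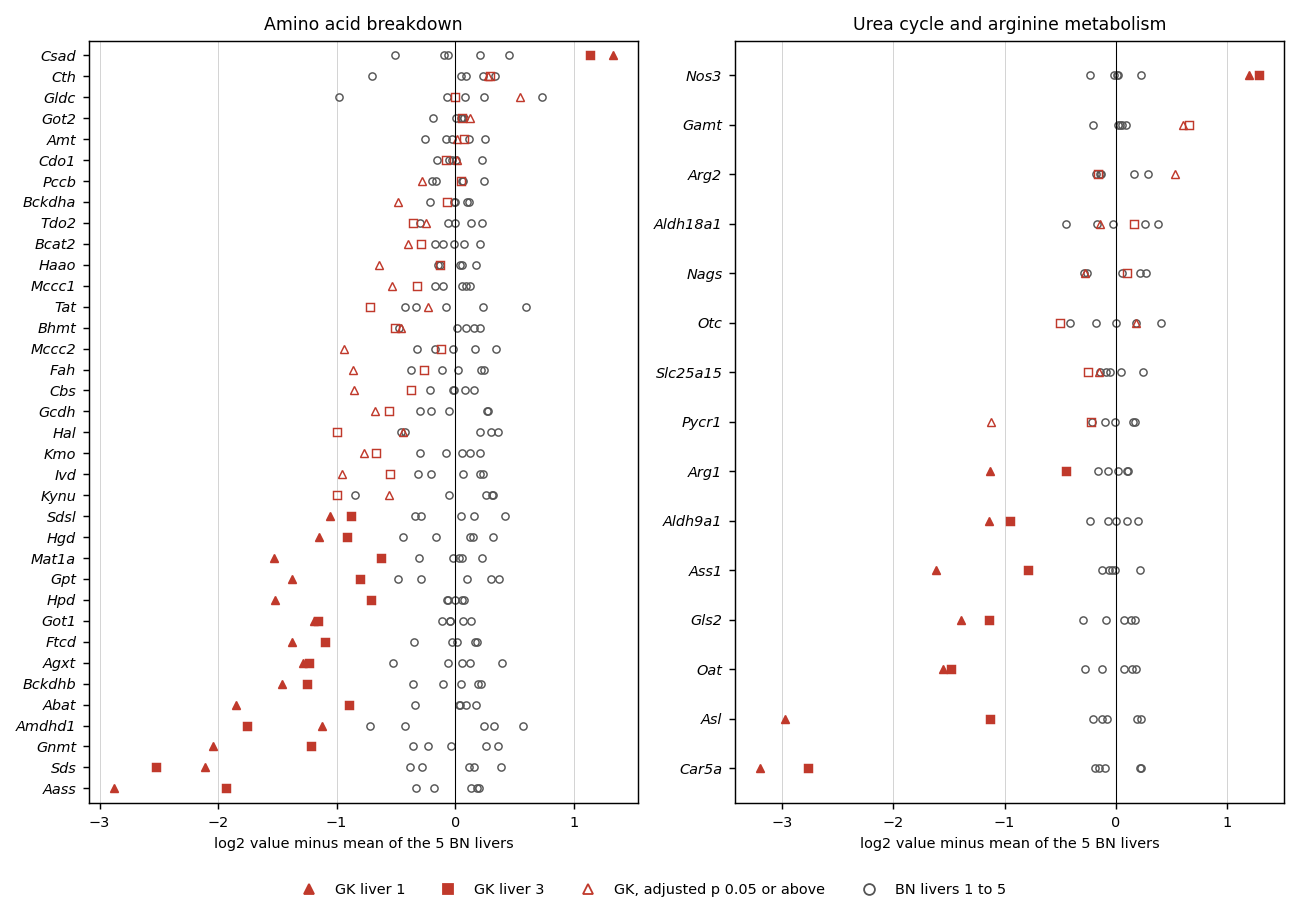
Genes of amino acid breakdown (left) and of the urea cycle and arginine metabolism (right), as log2 value minus the mean of the 5 BN livers. Red triangles are GK liver 1 and red squares GK liver 3, filled where the adjusted p was under 0.05, and open circles are the BN livers. Filled pairs lie to the left of the BN livers except for Csad and Nos3, and the triangle lies left of the square for Asl, Ass1 and Gnmt.

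Enzymes of drug and steroid metabolism changed in both directions. Of 33 measured genes of xenobiotic oxidation 6 were called higher and 5 lower (33.3%, beside 8.49% of probes detected on every array of at least 1 strain). Aox1, the neighbour of Aox3 in its gene family, was 13.94 and 13.81 in GK and 11.24 to 12.07 in BN livers (4.52-fold, limma adjusted p = 6.16e-05). Fmo5, a flavin monooxygenase, was 6.93 and 6.45 in GK and 9.29 to 9.59 in BN livers (6.67-fold lower, limma adjusted p = 9.91e-07), and Cyp3a9 was 11.41 and 11.31 in GK and 13.07 to 13.66 in BN livers. Of 34 conjugation enzymes 4 were higher and 7 lower (32.4%), the lower ones including Sult1c2 (log2 fold change −1.89), Nnmt (−1.74), which methylates nicotinamide, and Ugt2b1 (−1.49).

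Among 29 genes that depend on sex or growth hormone, 2 were higher and 5 lower (24.1%, beside 8.49% of probes detected on every array of at least 1 strain). The higher were Cyp2c12 and Ghr, and the lower were Akr1c2, Cyp17a1, Cyp2a1, Cyp4a2 and Socs2. The members were not sorted by the sex in which they are usually higher, and a shift toward a female pattern was not tested. Cyp2c12, a steroid hydroxylase typical of female rat liver, was 11.03 and 11.27 in these GK males, against 9.39 to 9.79 in BN males (3.08-fold, limma adjusted p = 0.000107). Cyp4a2, a fatty acid hydroxylase typical of males, was 13.12 and 12.84 in GK and 14.52 to 14.85 in BN livers (3.36-fold lower, limma adjusted p = 5.49e-05). Ghr, the growth hormone receptor, was higher (log2 fold change 0.97 ± 0.22, limma adjusted p = 0.0220) but not without GK liver 1 (adjusted p = 0.218) or BN liver 2 or 4 (0.0519 and 0.0614). Socs2, a feedback inhibitor of growth hormone signalling, was detected on all 5 BN and no GK arrays (at least 2.65-fold lower, limma adjusted p = 0.0399), and lost its call without GK liver 1, GK liver 3 or BN liver 4 (adjusted p 0.0623 to 0.285). Hsd17b6, which inactivates androgens in liver, was lower (−1.50 ± 0.18, limma adjusted p = 0.000222). Ghr and Socs2 were not called in the neqc style (limma adjusted p = 0.095 and 0.502).

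Of 29 NRF2 targets and antioxidant genes 4 were higher and 2 lower (20.7%, beside 8.49% of probes detected on every array of at least 1 strain). Gclm (log2 fold change 0.96), which makes glutathione, Txnrd1 (0.82) and Akr7a3 (1.05) were among the higher. Gclm lost its call without BN liver 1, 3 or 4 (limma adjusted p 0.0609 to 0.0952). Txnrd1 did so without BN liver 3 or 4 (0.0523 and 0.0579), and Akr7a3 without BN liver 4 or 5 (0.0939 and 0.0691). GK livers 1 and 3 lay above the BN mean by 1.36 and 0.57 for Gclm, 0.60 and 1.03 for Txnrd1, and 1.18 and 0.92 for Akr7a3. Gclm and Akr7a3 thus rested more on GK liver 1 and Txnrd1 more on GK liver 3. With any 1 BN liver left out, 0 to 3 of the 4 passed. Akr1b8 was detected on no GK array (at least 1.48-fold lower). Mt1, metallothionein, was 12.60 and 13.12 in GK and 15.45 to 15.70 in BN livers (6.57-fold lower, limma adjusted p = 1.07e-06). In the neqc style Gclm, Akr7a3 and Akr1b8 did not pass (limma adjusted p 0.0951 to 0.16). The 2 NRF2 members that fell, Mt1 and Akr1b8, are a metal-binding protein and an aldo-keto reductase.

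In fuel oxidation and glucose metabolism, 8.33% of the mitochondrial, 22.2% of the peroxisomal and omega and 7.69% of the glycolysis list were called. Over all probes the share was 3.68%, and it was 8.49% over those detected on every array of at least 1 strain. Of 24 genes of mitochondrial fatty acid oxidation 2 were called, both higher. They were Acsl3, a long-chain acyl-CoA synthetase (1.97, limma adjusted p = 6.16e-05), and Ppara, the nuclear receptor that induces fatty acid oxidation, which was 6.25 and 7.33 in GK livers and detected on no BN array (at least 2.03-fold, limma adjusted p = 0.0362). Ppara lost its call without GK liver 3 (adjusted p = 0.196) or BN liver 2, 3 or 4 (adjusted p 0.081 to 0.0939). Peroxisomal and omega oxidation gave 3 higher and 1 lower of 18. Acot1, an acyl-CoA thioesterase, was 9.80 and 8.60 in GK and 5.51 to 7.09 in BN livers, and the omega hydroxylase Cyp4a8 was at least 1.96-fold higher and detected on no BN array. Crat (1.05) passed with 1 probe but not with its second (adjusted p = 0.8002), and not without GK liver 1 (adjusted p = 0.243). Ppara, Acot1 and Crat were not called in the neqc style (limma adjusted p 0.156 to 0.244).

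Of 26 genes of glycolysis, gluconeogenesis and glycogen 2 were higher. Pklr, liver pyruvate kinase, was 9.72 and 9.96 in GK and 8.55 to 9.23 in BN livers (limma adjusted p = 0.0169), and Slc2a2, the GLUT2 transporter, 13.67 and 13.76 in GK and 12.80 to 13.19 in BN livers (limma adjusted p = 0.0389). Pklr did not pass without GK liver 3 (adjusted p = 0.0573). Slc2a2 did not pass without any 1 of GK liver 1, GK liver 3 and BN livers 2 to 5 (adjusted p 0.0549 to 0.11). Of 22 insulin signalling genes 1 was lower (4.55%, near the 3.68% of all probes), which was Socs2. Of 18 genes of triglyceride synthesis and storage (16.7% called), Abhd5, an activator of lipolysis, was higher (1.05), and Cidea (−2.15), a lipid droplet protein, and Agpat2 (−0.98) were lower. Without GK liver 1 Abhd5 (adjusted p = 0.0655) and Agpat2 (0.0924) were not called, nor were Cidea (0.188) and Agpat2 (0.0509) in the neqc style. Nr0b2, the SHP repressor of bile acid synthesis, was 9.55 and 9.59 in GK and 7.15 to 8.50 in BN livers (3.45-fold, limma adjusted p = 0.00153), and Foxa3, a liver transcription factor, had a log2 fold change of 0.80 and was not called without GK liver 1 or BN liver 1, 2, 3 or 4 (adjusted p 0.0545 to 0.163).

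In 6 lists limma called none at an adjusted p of 0.05: 53 oxidative phosphorylation subunits (4 at an unadjusted p of 0.05), 29 endoplasmic reticulum chaperones (4), 25 cell cycle genes (3), 20 apolipoprotein genes (4), 16 heat shock proteins (3) and 15 clock genes (5). The smallest p in these lists belonged to Cox6c (−0.71, limma adjusted p = 0.0639), Canx (0.67), Cdkn1a (0.94), Angptl4 (0.65), Hspb1 (−0.74) and Bhlhe40 (1.41, limma adjusted p = 0.0563). Of 40 plasma protein and acute phase genes A2m and F10 (0.79) were higher and Crp (−0.86) was lower. That is 7.5% of the list, no more than the 8.49% over probes detected on every array of at least 1 strain. F10 lost its call without GK liver 3 or BN liver 2, 3, 4 or 5 (adjusted p 0.0679 to 0.14) and Crp without GK liver 1 or BN liver 3 (0.195 and 0.0657). Of 31 antigen presentation genes 9.68% were called, near the same 8.49%. RT1-S3 (1.07) and RT1-DMa (0.91) were higher and RT1-CE15 (−1.18) was lower. These are variable genes of the major histocompatibility complex, where strain sequence under the probe cannot be told apart from level, and RT1-DMa was not called without GK liver 1 or BN liver 2, 3, 4 or 5 (adjusted p 0.0641 to 0.253). F10, Crp, RT1-DMa and RT1-CE15 did not pass in the neqc style (limma adjusted p 0.0683 to 0.112).

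**Figure D5:**
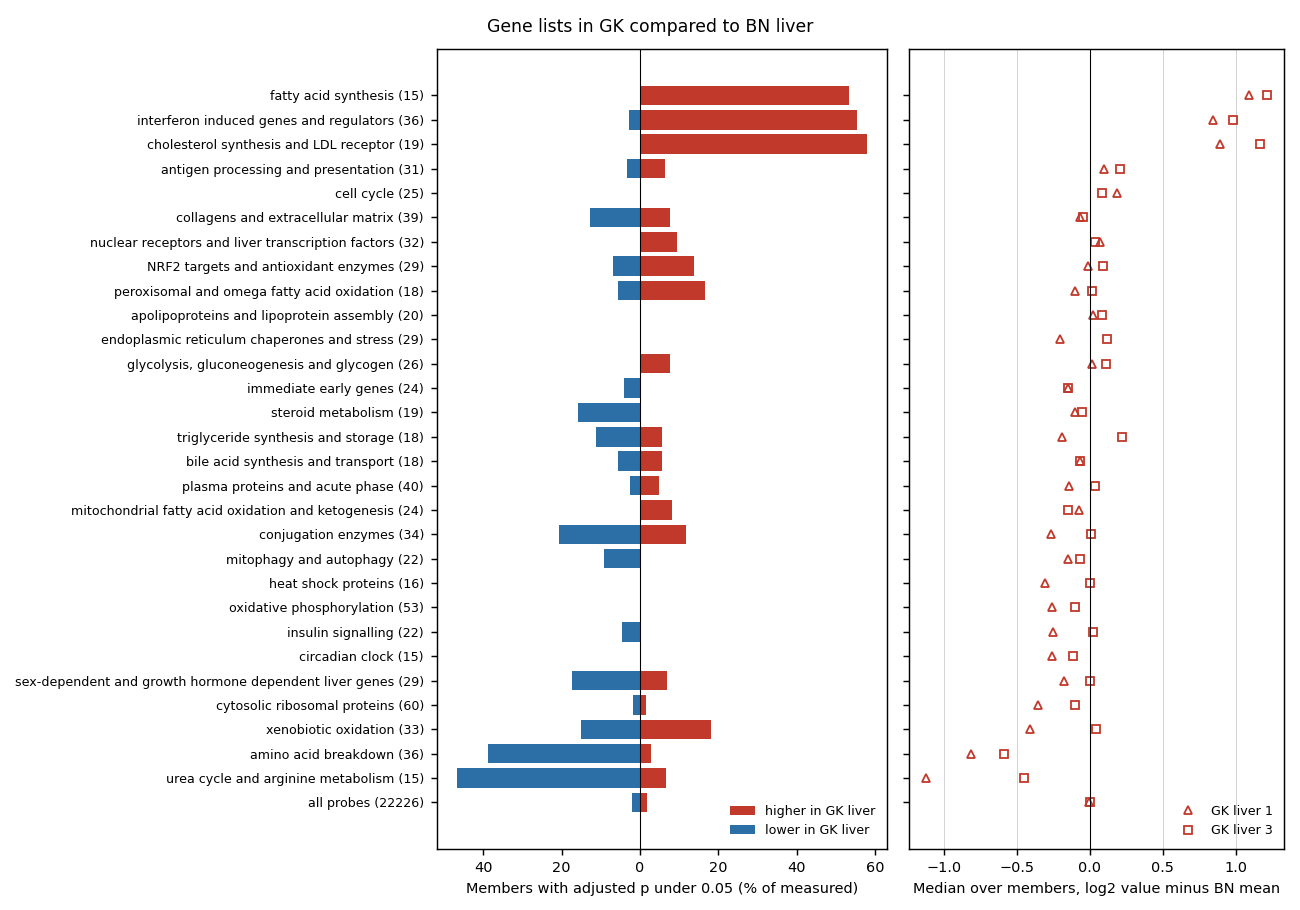
Gene lists with the number of measured members in brackets. Left, percent of members called higher (red, to the right) or lower (blue, to the left) in GK compared to BN liver; right, the median over members of the log2 value minus the BN mean on GK liver 1 (triangles) and GK liver 3 (squares). The interferon, fatty acid and cholesterol lists reach over 50% called higher, and all probes stand at 3.68% in both directions together.

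Genes that the study itself named were looked up too, and were picked by it on these samples, so their direction is not independent evidence. Of 16 measured genes from the pathways it listed for liver, 5 were higher and 11 lower. Those not yet given are Loxl1 (2.28), a matrix cross-linking enzyme, and Itga4 (at least 2.07-fold), an integrin, which were higher, and Cd47 (−1.52), Pla2g12a (−1.17), Ptges2 (−1.32) and Col3a1 (−0.95), which were lower. Col3a1 was not called without GK liver 1 (adjusted p = 0.0527) or in the neqc style (adjusted p = 0.0629). Of 8 genes named around the microRNA miR-125a, 3 were lower. Slc35c2, a fucose carrier, was 8.38 and 8.53 in GK and 10.94 to 11.55 in BN livers (6.74-fold lower, limma adjusted p = 2.09e-06), and Umps, which completes pyrimidine synthesis, was 7.34 and 7.59 in GK and 8.87 to 9.07 in BN livers. Ptges2 was the other. Sult1a1 (−0.21), Plpp2 (0.11) and Erbb3 (−0.02) did not pass, and Erbb2 and Lin28a were detected on no liver array here.

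The liver differences were set against the strain difference in adipose tissue of 4 GK and 5 BN rats, fitted jointly with the rat as a random block. Of the 9 adipose arrays 7 came from rats with a liver array in the comparison, GK adipose 2 from the rat of GK liver 1 and GK adipose 4 from the rat of GK liver 3. Values within a tissue below come from a normalization of that tissue alone and the difference between tissues from 1 model of both, so they need not subtract exactly. In adipose tissue 1100 probes (4.95%) were called, and a difference of GK minus BN between the tissues, liver over adipose tissue, was called for 425 probes (1.91%). Of the 818 probes called in liver, 252 differed in this way, whereas 211 were called in the same direction in both tissues and 33 in opposite directions. Among the GK adipose arrays, replicate 2, from the rat of GK liver 1, carried skeletal muscle markers at a median of 3.77 above the BN mean. The number of probes with a tissue difference was 322 without it, 198 without GK liver 1 and 1251 without GK liver 3.

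The tissue difference passed for some lipid genes and for few antiviral ones. Of the 8 fatty acid genes called in liver 3 passed, Scd, Fads1 and Acly, whereas Fads2, Me1, Elovl5, Srebf1 and Acss2 did not (limma adjusted p 0.0698 to 0.997). Fads1 had a log2 fold change of 2.91 in liver and −0.41 in adipose tissue (difference 3.27, limma adjusted p = 2.51e-05), and Scd had 7.85 and 1.31 (difference 6.77, limma adjusted p = 0.00509). Of the 11 cholesterol genes called in liver 6 passed, Sqle, Idi1, Msmo1, Acat2, Fdft1 and Cyp51, the last of which was detected on no adipose array, and Dhcr7, Fdps, Sc5d, Mvd and Nsdhl did not (limma adjusted p 0.0652 to 0.501). Il33 (difference −4.46) and Rhbg (−3.28) had a larger decrease in liver by this test, and Il33 was detected on all 9 adipose arrays with a log2 fold change of −0.31 there. Cyp17a1 and Akr1c2 passed as well, but were detected on no adipose array, so the size of their difference was not measured.

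Of the 21 interferon genes called in liver 2 passed the test between tissues. Ifi47 was detected on all 4 GK and no BN adipose arrays and differed (limma adjusted p = 0.0101). Igtp had a log2 fold change of −1.04 in liver and 0.39 in adipose tissue (difference −1.58, limma adjusted p = 0.0316). The other 19 did not pass, which does not show that they were alike in both tissues. Ifit1, and outside the list Echdc2, were detected on all GK and no BN arrays in liver and in adipose tissue, so no tissue difference could be measured for them. Mx2 had 3.86 in liver and 3.25 in adipose tissue, where 1 of 5 BN arrays detected it (limma adjusted p of the difference = 0.828).

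Some of the positive differences with the smallest adjusted p came from genes that were lower mainly in adipose tissue. Bnip3, of mitophagy, was detected on all adipose arrays and had a log2 fold change of −0.98 in liver and −5.84 in adipose tissue. Hmgn1, a nucleosome binding protein, and Cd2bp2, a splicing protein, were detected on all 5 BN and no GK adipose arrays and had −0.88 and −0.54 in liver. Hmgn1 was called in liver with all arrays but not without GK liver 1 (adjusted p = 0.115). The transcription factor Nfib had −0.36 in liver and was detected on 1 of 4 GK and all 5 BN adipose arrays. Nr1i3, the CAR receptor, had −0.27 in liver and was detected on all 4 GK and no BN adipose arrays, so the size of its tissue difference was not measured (limma adjusted p = 8.76e-06).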

How the data were processed

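Total RNA was measured on Illumina RatRef-12 arrays. The authors deposited linear signal intensities per probe, averaged over beads and neither background-subtracted nor normalized, with a detection score, a fraction from 0 to 1 giving the rank among negative controls. A deposited table also holds log2 values normalized by the authors per tissue, used as an alternative. The mean of the negative controls was subtracted per array, and the 7 liver arrays were fitted by vsn written in Python 3.11.15 (numpy 2.4.6). With all 8 liver arrays it matched the deposited log2 values within 0.000746.

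Strains were compared with limma 3.58.1 in R 4.3.3, without a block, with Benjamini-Hochberg adjustment over all 22226 probes and no filter on dim probes. "At least" folds set the dim strain at the higher of its own signal and the lowest detected signal per array. They are bounds on the vsn scale only. In the neqc style Itga4 (0.10), Ppara (0.09), Cyp4a8 (0.11), Socs2 (−0.15) and Akr1b8 (−0.09) had small log2 fold changes. The tissue comparison used 1 vsn model of 16 arrays and each rat as a random block (statmod 1.5.0), since 7 of the 9 adipose arrays come from rats of the 7 liver arrays. A symbol was given for 13650 probes. Where a gene had several probes, the one with the highest mean was used. On simulated data with 200 changed probes, the liver fit found 64% of changes of 1 and 97% of changes of 2 on the log2 scale, with 10 false calls. The changed probes were drawn from those detected on all 7 arrays, and a probe had the same noise on every array. Changes in faint probes and an array with RNA of other tissue were not simulated, so these rates need not hold for the real calls.

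The genes named were the 15 largest called changes in each direction without overlap, up to 5 called members per list (2 where none passed), all members of the fatty acid, cholesterol, interferon and study lists, 5 per direction of the tissue comparison, and the genes that chose the array. Members, lists and the array choice were made with earlier results of these data known. Alternatives were other normalizations, a filter on dim probes, another prior, a replicate block and leaving out each array. Replicates are separate rats by their labels. The study states 4 rats per strain, whereas more BN arrays are held here. The number of arrays limits the precision. Replicate numbers did not pair the strains: same-numbered arrays had deviations that correlated at −0.06 (replicate 1) and 0.04 (replicate 3).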

Additional observations from a re-analysis of the deposited data

Results flagged for a closer look

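In 20 of the 181 genes named (11%), 1 BN liver lay apart from the other 4, beside 6.5% of the 7568 probes detected on every BN liver and about 1 in 20 groups by chance. BN liver 1 was the array in 17 of the 20. It was high for A2m (8.21), Aacs (7.74), Ahsp (11.32), Alas2 (10.04), Cyp51 (7.41), Fads1 (11.08), Fdps (11.51), Hemgn (8.44), Idi1 (9.72), Lgals5 (10.29), Msmo1 (11.25), S100a8 (9.82), Scd (7.98), Sqle (9.13) and low for Abat (12.02), Cxcl10 (5.22), Hamp (7.85), values being log2 levels. Many of the genes in which it was high belong to the fatty acid or cholesterol list, all members of which were named. Over the whole lists, it lay above the mean of the other BN livers for 16 of 19 cholesterol members (median 0.58). For fatty acid synthesis this held for only 7 of 15 members (median −0.03). Ahsp, Alas2, Hemgn and S100a8, which blood cells make, and Hamp were singled out after their values were seen. The 11% and the 17 of 20 thus depend in part on which genes were named, and are a description only. BN liver 5 lay apart for Aox3 (7.46) and Plpp2 (9.37), and BN liver 2 for Rhbg (9.42).

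The GK minus BN difference of liver less the same difference of adipose tissue passed an adjusted p of 0.05 for 51 of the genes named (limma, GK minus BN in each tissue). It was positive for Acat2 (2.34), Acly (1.98), Acot1 (3.69), Acsl3 (2.00), Aox1 (2.83), Aox3 (2.91), Bnip3 (4.82), Cd2bp2 (4.29), Csad (1.5), Cyp2c12 (1.40), Cyp4a8 (2.88), Cyp51 (2.74), Fads1 (3.27), Fdft1 (1.56), Gsta5 (4.59), Hmgn1 (5.14), Idi1 (2.32), Loxl1 (3.45), Miox (3.13), Msmo1 (2.65), Nfib (4.39), Rpl30 (4.03), Scd (6.77), Sqle (2.81), Umps (1.09), Washc3 (3.26). It was negative for Aass (−3.01), Abat (−1.52), Akr1c2 (−4.53), Car5a (−3.69), Chmp4c (−2.76), Cyp17a1 (−4.53), Cyp3a9 (−2.35), Cyp7b1 (−3.64), Gemin6 (−2.26), Gls2 (−1.65), Got1 (−1.75), Gsta3 (−3.38), Hsd17b6 (−2.52), Ifi47 (−2.68), Igtp (−1.58), Il33 (−4.46), Mt1 (−2.45), Nr1i3 (−6.04), Oat (−1.75), RT1-CE15 (−1.22), Rhbg (−3.28), Sds (−2.13), Slc35c2 (−1.74), Sult1c2 (−2.40), Tmod1 (−4.67). Of these 51 genes 23 were detected on no array of at least 1 strain in 1 of the tissues, among them Nr1i3, Hmgn1, Cd2bp2, Ifi47, Cyp17a1 and Akr1c2, and 15 on no adipose array, so the sizes of those differences rest on signal below the detection threshold. The count over all probes was 425, against 198 without GK liver 1 and 1251 without GK liver 3.

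GK liver 2, which no comparison uses, carried Umod at 14.76 and Slc34a1 at 13.71, far above the BN livers. These values chose the array to leave out.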

How the results depend on the processing

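The number of called probes, 818, was 440 with normexp and quantile normalization (neqc style), 521 with plain quantile normalization, 525 with the deposited log2 values, 293 with 1 vsn model of 16 arrays and 244 with GK liver 2 kept. The higher calls, 378, were 243 with the deposited values, 129 with 16 arrays and 97 with GK liver 2. The lower calls, 440, were 179, 232, 282, 164 and 147 in the order of the first sentence. The neqc style gave 261 higher and 179 lower and plain quantile normalization 289 higher and 232 lower, so the balance of directions moved with the scaling. The other alternatives gave 944 calls among 8205 detected probes and 962 with a trended, robust prior. Leaving out each array gave 504 to 2335 calls, 262 to 973 higher and 242 to 1362 lower, the extremes being without GK liver 1 and without GK liver 3. Probes without overlap, 4119, were 2141 with GK liver 2 and 4749 to 12681 without each array, 8295 of them without GK liver 1. The tissue comparison, 425, gave 1008 in the neqc style and 198 to 1251 without each liver array. Leaving out each GK adipose array, chosen after seeing the data, gave 322 to 391, and the adipose count, 1100, was 722 to 1101, lowest without GK adipose 1.

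With the replicate number as a block, 679 probes were called, and 103 of the 125 named genes that were called passed; the numbers do not pair the samples. Of these 125, 33 passed under every alternative and 95 without each array in turn. With GK liver 2 kept, Cyp2c12 (−0.53), F10 (−1.68), Fads2 (−0.046), Foxa3 (−1.11) and Nsdhl (−0.55) changed sign. The cause was not tested, and that array carries kidney genes. In the neqc style, with quantile normalization, the deposited values, 16 arrays and GK liver 2 kept, in that order, the interferon count of 20 higher was 12, 11, 15, 7 and 9, the fatty acid count of 8 was 5, 4, 6, 3 and 2, the cholesterol count of 11 was 5, 4, 8, 3 and 0 (7 by limma at an unadjusted p of 0.05), the amino acid count of 14 lower was 5, 5, 9, 3 and 3 and the urea cycle count of 7 lower was 5, 4, 6, 2 and 5. The neqc style kept 83 of the 125 called genes. Slide as a block could not be fitted, since 1 of 6 slides holds both strains.

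Only 2 GK livers were compared, 1 of them dim and with Kap signal. Dim probes give lower bounds on the vsn scale only, 55 called probes were detected nowhere, and a probe mismatch in GK cannot be told apart from a lower level.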

Other observations

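Hamp, which encodes hepcidin, the liver hormone that limits iron uptake, was singled out after its values were seen. It was 15.20 and 15.24 on GK livers 1 and 3, against 7.85 on BN liver 1 and 15.04 to 15.61 on BN livers 2 to 5. The strains were not distinguished by limma (log2 fold change 1.36 ± 1.54, adjusted p = 0.714), and BN liver 1 alone stood apart. The same array was the highest BN liver for A2m, Lgals5 and several genes of cholesterol synthesis. Markers of blood cells, singled out in the same way, were high on it too. Ahsp, which stabilizes alpha globin, was 7.90 and 8.34 on the GK livers, against 11.32 on BN liver 1 and 6.09 to 6.96 on the other BN livers. Alas2, the heme synthesis enzyme of red cell precursors, was 7.15 and 7.80 on the GK livers, against 10.04 on BN liver 1 and 6.45 to 7.48 on the others, and Hemgn was 6.04 and 6.15, against 8.44 and 5.50 to 5.81. S100a8, a calcium-binding protein of neutrophils, was 7.15 and 7.04 on the GK livers, against 9.82 on BN liver 1 and 6.29 to 7.03 on the others. Marco, a receptor of macrophages, was 9.44 and 9.65 on the GK livers, against 9.51 on BN liver 1 and 7.01 to 7.93 on the others. None of these 5 genes was called by limma, though Marco passed at an unadjusted p of 0.0034. The relation between these values was not tested.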
